A study of Homo sapiens with 18 samples.

Results

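The genes described here are 41 genes of DNA replication and the G1/S transition of the cell cycle, followed across all 18 bulk RNA-seq libraries of a study of thrombin in LX-2 cells. They were taken as rows of the deposited count table by symbol, and all 41 were found among its 28278 symbols and among the 15353 genes with enough counts to test. LX-2 is an established line of human hepatic stellate cells, the pericyte-like liver cells that make scar matrix, and it was immortalised with SV40 large T antigen, a viral protein known to bind the RB proteins that hold E2F factors in check. Cells were plated for 48 h in wells of 6-well plates, moved to serum-free medium for 1 h, and then kept in that medium either alone (control) or with thrombin at 1 U/mL, so the control cells were without serum as well. RNA was taken at 4, 24 and 48 h, which gave 6 groups of 3 libraries, named by the numbers 12, 13 and 14 of the labels. The labels do not say what those numbers count or that they mark separate cultures, so a p-value here reflects only how far the libraries of a group spread, and that spread may be technical.

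In G1, cyclin D1 with CDK4, and later cyclin E with CDK2, phosphorylate the RB proteins and free E2F factors, which switch on the genes of DNA synthesis. ORC, CDC6 and CDT1 load the MCM2-7 helicase onto origins, CDC45 and the GINS complex with MCM10 turn it on, and polymerases held by the PCNA clamp copy the DNA while ribonucleotide reductase, thymidylate synthase and thymidine kinase supply nucleotides. Stellate cells are known to be quiescent in healthy liver and to divide when activated, and thrombin is known as a mitogen for several mesenchymal cell types. In bulk RNA, a change in the share of cells in S phase and a change in RNA per cell cannot be told apart.

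The region just before the start of many of these genes carries the short words bound by E2F factors, and stretches of 4 members are shown for that reason. In the RefSeq promoter table of GRCh38.p14, 35 of the 41 members had a window of 300 bases (250 before the start and 50 after it). CCND1, CCNE2, CDK2, E2F8, MCM4 and MCM5 did not match. The words TTCCCGC and TTCGCGC together with TTGCCGC and TTGGCGC were searched for on both strands as E2F words, CCAAT as the word bound by NF-Y, and TTTGAA as the CHR word of genes of later cell cycle phases. UHRF1, MCM10 and RRM2 are genes called higher with thrombin at 24 h. MCM6, a gene that was not, was chosen after its values were seen because it held the most E2F words. EXO1, the member with the smallest adjusted p at 24 h, is not shown. Its 250 bases before the start held 0 E2F and 0 CCAAT words, and 1 E2F word lay after the start. The starts are those of the promoter table, and the window of UHRF1 lies wholly, and that of RRM2 mostly, inside the span that RefSeq gives for the whole gene. The 250 bases before the start are given 5' to 3' on the gene's strand, with E2F and CCAAT words of either strand in capitals, for UHRF1 at chr19:4909251-4909500 (plus strand), MCM10 at chr10:13161308-13161557 (plus), RRM2 at chr2:10122489-10122738 (plus) and MCM6 at chr2:135876444-135876693 (minus).
UHRF1: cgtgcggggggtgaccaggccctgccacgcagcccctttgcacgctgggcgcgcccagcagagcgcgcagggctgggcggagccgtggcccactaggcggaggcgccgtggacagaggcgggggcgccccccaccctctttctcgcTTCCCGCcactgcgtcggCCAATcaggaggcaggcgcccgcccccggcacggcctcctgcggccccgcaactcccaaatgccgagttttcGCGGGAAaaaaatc
MCM10: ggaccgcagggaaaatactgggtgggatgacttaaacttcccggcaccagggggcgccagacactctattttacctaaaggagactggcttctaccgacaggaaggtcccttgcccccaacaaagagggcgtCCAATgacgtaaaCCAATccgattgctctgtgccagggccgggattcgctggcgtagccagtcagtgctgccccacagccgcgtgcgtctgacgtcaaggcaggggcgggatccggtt
RRM2: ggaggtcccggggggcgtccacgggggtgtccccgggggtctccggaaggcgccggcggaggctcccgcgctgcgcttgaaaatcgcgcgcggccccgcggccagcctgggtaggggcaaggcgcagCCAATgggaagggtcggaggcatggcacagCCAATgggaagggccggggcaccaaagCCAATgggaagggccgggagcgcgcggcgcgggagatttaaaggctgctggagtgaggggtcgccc
MCM6: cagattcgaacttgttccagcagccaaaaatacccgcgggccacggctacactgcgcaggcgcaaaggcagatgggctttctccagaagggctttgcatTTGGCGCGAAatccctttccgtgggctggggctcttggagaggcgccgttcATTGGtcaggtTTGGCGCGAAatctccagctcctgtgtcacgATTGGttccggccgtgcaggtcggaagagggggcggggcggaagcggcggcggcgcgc

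UHRF1 held 2 E2F words and 1 CCAAT word in its window, and MCM6 held 4 E2F words, in overlapping pairs on opposite strands, with 2 CCAAT words. RRM2 held 3 CCAAT words in near-repeats and no E2F word among those searched, and MCM10 held 2 CCAAT words and no E2F word. Over the 35 matched members, 25 (71.4%) had an E2F word, against 13.0% of the 35116 promoter windows in the table. CCAAT was found in 57.1% of the members and 34.6% of all windows, and TTTGAA in 2.86% and 15.2%. Of 44 E2F words in the 25 members, 30 lay within 50 bases of the start, in 21 genes. E2F and CCAAT words overlapped in 7 places. A match describes letters only: no binding was measured here.

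**Figure D1:**
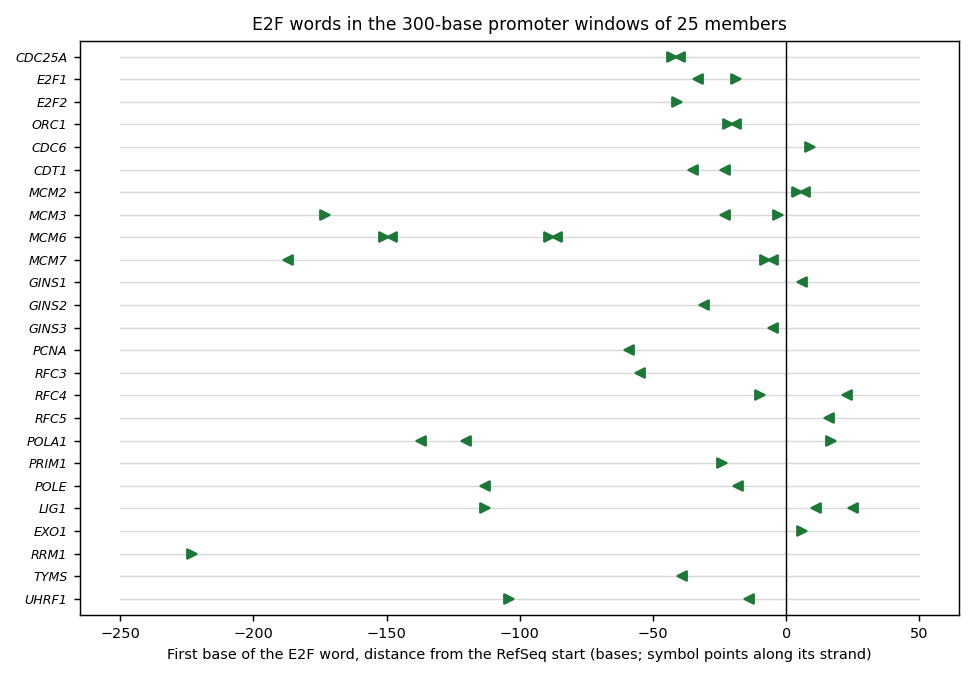
E2F words in the promoter windows of the 25 members that hold one, one row a gene, with the distance of the word's first base from the RefSeq start in bases on the horizontal axis and triangles pointing along the word's strand. Of the 44 words, 30 lie within 50 bases of the start.

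The libraries held between 14431044 and 23270601 counts. Members took 0.755% to 0.822% of each library, and the lowest count of a member in a library was 52, for PRIM1. Between thrombin 4 h and control 24 h, which differ in treatment and time by their labels, 11 of 15353 genes (0.0716%) were called, so groups are named as labelled and every direction rests on those labels. Whether labels of these groups were exchanged cannot be told from the files. Control 4 h replicate 12, thrombin 4 h replicate 12 and control 48 h replicate 14 stood farthest from the other libraries of their groups (chi-square per degree of freedom over genes 12.9 to 17.7, against 2.92 to 12.0 for all other pairs within groups), and no libraries were alike within sampling noise. The cells carried stellate transcripts (COL1A1 at 1743 to 2804 CPM, the scaled unit described below, and VIM at 3129 to 4079), while ALB of hepatocytes had at most 2 counts, CD163 of macrophages at most 1 and EPCAM of bile duct cells at most 3. LRAT, a retinoid storage gene of quiescent stellate cells, had at most 6 counts. Levels are CPM, counts of a gene as a share of the library's total after TMM scaling, changes are log2 fold changes with their standard error, and a gene is called, or said to rise or fall, at an adjusted p below 0.05 in edgeR's quasi-likelihood test over all 15353 genes.

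The 6 group means of most of these genes lay close together. The ratio of the highest to the lowest group mean ran from 1.04 for RFC4, a subunit of the clamp loader, to 1.54 for EXO1, the 5' to 3' exonuclease of mismatch repair and DNA end resection, and it was 1.52 for CCND1. The highest of the 6 means was in thrombin 24 h for 15 of the 41 members, in control 4 h for 10, in control 48 h for 7, in control 24 h for 5 and in thrombin 4 h for 4. No member had its highest mean in thrombin 48 h. The lowest mean was in thrombin 24 h for 2 members, and in thrombin 4 h and control 48 h for 10 each. Such counts were not made over all genes, so they are not shown to be particular to the members.

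**Figure D2:**
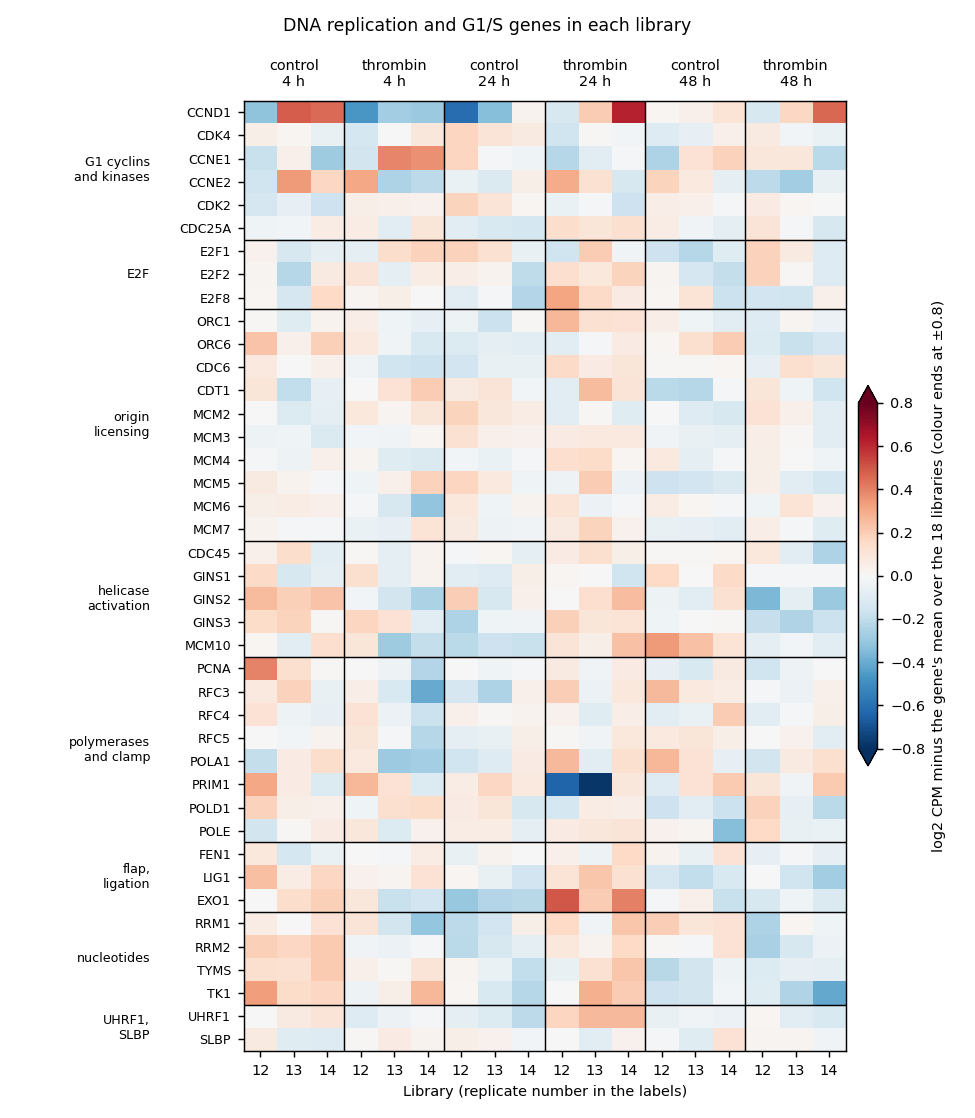
Level of each of the 41 members in each of the 18 libraries as log2 CPM minus the gene's mean over libraries, with members grouped by role and libraries by labelled group. Thrombin 24 h holds the highest group mean of 15 members, a count not made over all genes. EXO1 and CCND1 show the widest range of group means, 1.54 and 1.52 times.

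The comparison at 24 h set libraries labelled thrombin against libraries labelled control. EXO1, UHRF1, MCM10, RRM2, TK1 and ORC1 rose, and no member fell. These 6 members make 14.6% of the 41, where 9.05% of all genes tested rose and 8.54% fell. The median change of the members was 0.09, against 0.00 over all genes, and 30 of 41 members had a positive change. Thrombin 24 h held the highest group mean of EXO1, UHRF1 and ORC1. That of RRM2 and TK1 was in control 4 h (153 and 722.6 CPM), and that of MCM10 in control 48 h (43.5 CPM). RRM2, EXO1 and TK1 fell in control from 4 h to 24 h. With thrombin from 4 h to 24 h, only EXO1 and UHRF1 of the 6 members were called.

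EXO1 (chr1:241847986-241889939) measured 22.0, 23.1 and 23.3 CPM in control 24 h and 38.3, 31.3 and 36.0 CPM in thrombin 24 h. Every thrombin library was above every control library, and also above all 12 libraries of the other times. The change was 0.63 ± 0.10, a 1.54-fold rise (adjusted p = 7.28e-05). LIG1, the ligase that seals Okazaki fragments, changed by 0.22 ± 0.08 (adjusted p = 0.0631), and FEN1, the flap endonuclease, by 0.06 ± 0.08 (adjusted p = 0.606).

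UHRF1 (chr19:4903080-4962154) binds hemimethylated DNA behind the fork and recruits the maintenance methyltransferase. It measured 256.8, 250.4 and 234.3 CPM in control 24 h and 305.3, 323.3 and 323.9 CPM in thrombin 24 h. The 3 thrombin libraries were the highest of all 18. The rise was 0.36 ± 0.07 (adjusted p = 0.000622). SLBP, which binds the stem loop of histone mRNA, stayed uncalled at -0.03 ± 0.07 with a 95% interval from -0.19 to 0.12.

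Nucleotide supply held 2 of the 6 genes. RRM2 (chr2:10122568-10211010), the S-phase subunit of ribonucleotide reductase, measured 115.5, 122.9 and 127.3 CPM in control 24 h and 142.3, 136.6 and 150.1 CPM in thrombin 24 h. The groups did not overlap, and the rise was 0.23 ± 0.07 (adjusted p = 0.0331). RRM2 shares 1077 exon bases with another annotated gene of the same strand and has 3 named pseudogenes, so its level is uncertain. TK1 (chr17:78174079-78187204), which salvages thymidine, measured 628.6, 571.7 and 530.8 CPM in control and 624.2, 757.9 and 714.9 CPM in thrombin. One thrombin library lay below the highest control library, and the rise of 0.28 ± 0.10 was near the threshold (adjusted p = 0.0485). RRM1, the large subunit of the reductase, changed by 0.22 ± 0.10 and TYMS, thymidylate synthase, by 0.17 ± 0.08 (adjusted p = 0.121 and 0.168).

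Among the genes that open origins, MCM10 and ORC1 rose. MCM10 (chr10:13161558-13211110), needed for helicase activation, measured 31.8, 33.0 and 32.7 CPM in control 24 h and 39.8, 38.2 and 43.6 CPM in thrombin 24 h, a rise of 0.32 ± 0.10 (adjusted p = 0.0260). ORC1 (chr1:52372829-52409503), the ATPase of the origin recognition complex, measured 47.7, 43.5 and 49.2 CPM in control and 58.9, 53.4 and 53.1 CPM in thrombin, a rise of 0.24 ± 0.08 (adjusted p = 0.0494). Neither gene's groups overlapped. CDC6, the loader of the MCM ring, changed by 0.20 ± 0.08 (adjusted p = 0.0735). The 6 genes of the MCM2-7 ring stayed uncalled, from -0.17 ± 0.07 for MCM2 to 0.13 ± 0.07 for MCM4. MCM2 measured 552.7, 520 and 509.6 CPM in control 24 h and 462, 492.5 and 456.9 CPM in thrombin 24 h, all lower but not called (adjusted p = 0.126). ORC6 and CDT1 changed by 0.08 ± 0.09 and 0.04 ± 0.10. GINS3 changed by 0.23 ± 0.09 (adjusted p = 0.0827), and CDC45, GINS2 and GINS1 by 0.10 ± 0.08, 0.09 ± 0.12 and 0.00 ± 0.09.

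None of the 8 genes of polymerases, clamp and loader was called at 24 h. PCNA, the sliding clamp, measured 115.7, 113.0 and 114.7 CPM in control 24 h and 121.9, 113.4 and 121.1 CPM in thrombin 24 h. These groups overlapped, and the change was 0.05 ± 0.09 with a 95% interval from -0.13 to 0.24. PRIM1, the catalytic subunit of primase, had the largest change of the class at -0.49 ± 0.19 (adjusted p = 0.0769). Its thrombin 24 h libraries held 58, 52 and 116 counts, so replicate 14 was apart from the other two. The remaining 6 lay between -0.03 ± 0.09 for RFC4 and 0.19 ± 0.11 for RFC3, with POLA1 at 0.17 ± 0.11, POLE at 0.07 ± 0.09, RFC5 at 0.05 ± 0.08 and POLD1 at -0.02 ± 0.09.

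The G1 cyclins and kinases and the E2F factors gave no call at 24 h. CCND1, cyclin D1, measured 686.8, 824.9 and 1069 CPM in control 24 h and 956.4, 1204 and 1605 CPM in thrombin 24 h. The groups overlapped, and replicate 12 was the lowest library in both, with a change of 0.55 ± 0.23 and a 95% interval from 0.06 to 1.03 (adjusted p = 0.116). It was called without the low-count filter, with a replicate block and without replicate 12 of every group. CDK4, its kinase partner, measured 211.9, 202.2 and 197.9 CPM in control and 168.7, 189.2 and 185.2 CPM in thrombin. All 3 thrombin libraries were lower, but the change of -0.17 ± 0.08 was not called (adjusted p = 0.130). CDK2, the partner of cyclin E, changed by -0.17 ± 0.07 (adjusted p = 0.0963), and CDC25A, the phosphatase that frees CDK2, by 0.24 ± 0.09 (adjusted p = 0.0549). CCNE1 and CCNE2, the E cyclins, changed by -0.15 ± 0.15 and 0.14 ± 0.15. E2F1, an activator E2F, measured 328.8, 315.2 and 277.6 CPM in control and 258.7, 333.3 and 283.7 CPM in thrombin. Its groups overlapped over most of their range and its change was -0.07 ± 0.10 (adjusted p = 0.648). E2F8, a repressor E2F that is itself an E2F target, changed by 0.29 ± 0.11 (adjusted p = 0.0712), and E2F2, another activator, by 0.17 ± 0.11 (adjusted p = 0.283).

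Of the 25 matched members with an E2F word, 3 rose at 24 h, with a median change of 0.09. Of the 10 without one, 3 rose, with a median of 0.07. Over all genes tested 9.05% rose, and genes with and without the word were not counted apart. The call of EXO1 held in 16 of 16 other settings and libraries left out, that of UHRF1 in 15, of MCM10 in 10, of RRM2 in 7, of TK1 in 6 and of ORC1 in 3. The count of 6 became 3 without control 24 h replicate 12, 2 without control 24 h replicate 13 and 1 without replicate 13 of every group. It became 2 without thrombin 24 h replicate 14 or without replicate 14 of every group. In both of those fits 1 member fell, PRIM1 (5.04% and 4.75% of all genes lower). Under upper-quartile scaling 3 rose and 1 fell, CDK2 (7.82% and 9.87% of all genes). In these fits with libraries left out the share of all genes that rose was 3.26% to 6.12%.

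**Figure D3:**
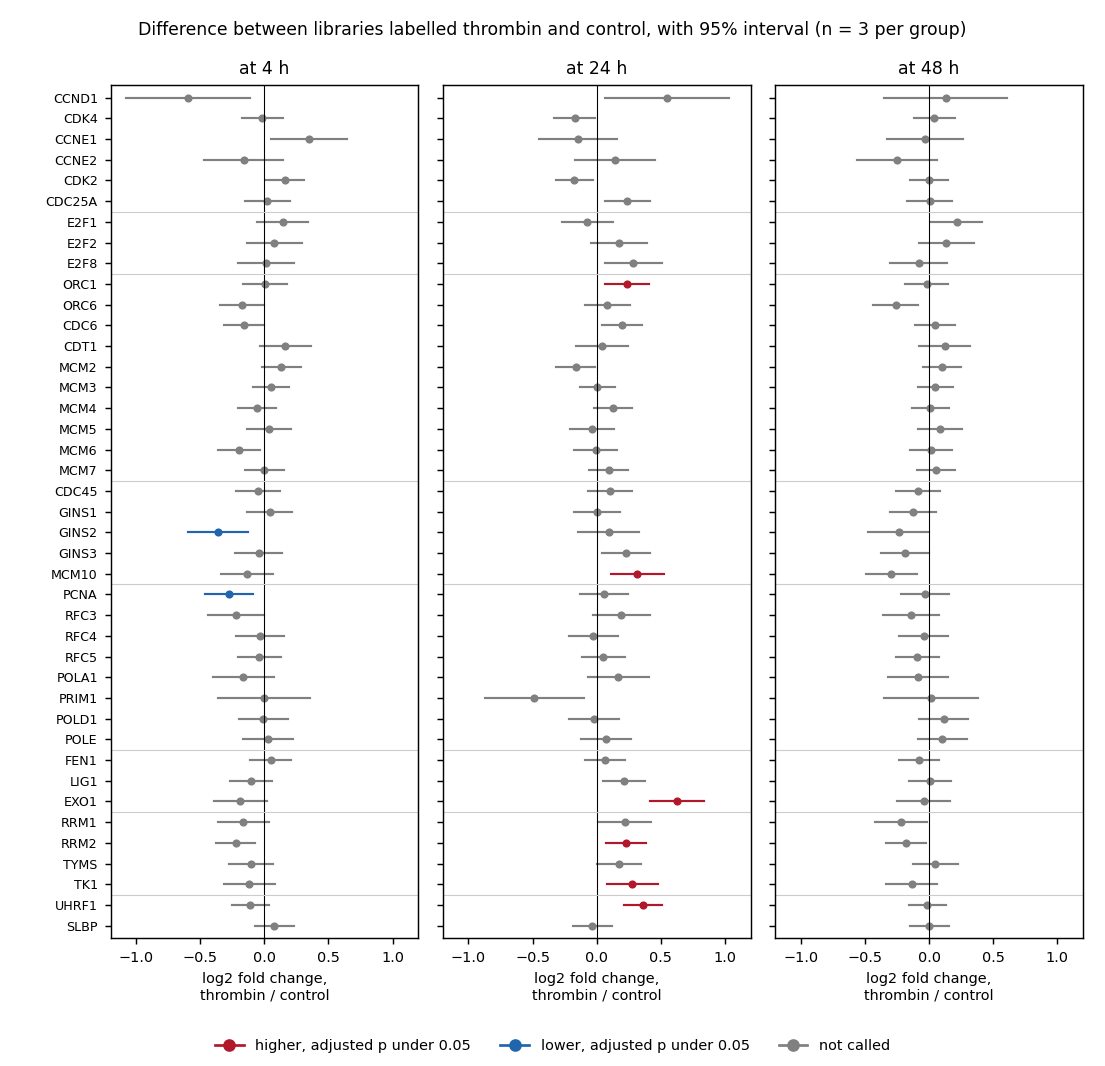
Log2 fold change of thrombin against control for each member at 4, 24 and 48 h with 95% intervals (n = 3 per group), red where called higher, blue where called lower and grey where not called, grouped by role. At 24 h the 6 called members lie at 0.23 to 0.63, at 4 h PCNA and GINS2 lie at -0.28 and -0.36, and at 48 h no member was called.

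At 4 h, GINS2 and PCNA fell and no member rose in the libraries labelled thrombin. These 2 members are 4.88% of the 41, where 5.52% of all genes fell and 6.29% rose, so the share was near the background. GINS2 (chr16:85676198-85688954), a subunit of the GINS complex, measured 17.8, 17.0 and 17.5 CPM in control 4 h and 14.6, 13.4 and 12.5 CPM in thrombin 4 h. The groups did not overlap, and the fall was -0.36 ± 0.11 (adjusted p = 0.0360). PCNA (chr20:5114953-5126622) measured 152.2, 126.5 and 116.6 CPM in control and 115.5, 112.5 and 98.4 CPM in thrombin. Here too each thrombin library was below each control library, if only just, and the fall was -0.28 ± 0.09 (adjusted p = 0.0461). PCNA has 3 named pseudogenes, so its level is uncertain.

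RRM2 measured 153.3, 150.7 and 154.9 CPM in control 4 h and 131.4, 129.7 and 132.5 CPM in thrombin 4 h. Its groups were tight and apart, and the change of -0.22 ± 0.07 just missed the threshold (adjusted p = 0.0507). The other genes of nucleotide supply were uncalled at -0.16 ± 0.10 for RRM1, -0.12 ± 0.10 for TK1 and -0.10 ± 0.08 for TYMS. CCND1 measured 835, 1462 and 1430 CPM in control and 758.1, 861 and 851.9 CPM in thrombin. Control replicate 12 lay within the thrombin range, and the change of -0.59 ± 0.23 was not called (adjusted p = 0.108). It was called without the low-count filter, with the compared groups alone and with a replicate block. Leaving out control 4 h replicate 12, or replicate 12 of every group, also gave a call. CCNE1 and CDK2 changed by 0.35 ± 0.14 and 0.16 ± 0.07 (adjusted p = 0.115 and 0.148), CCNE2 by -0.16 ± 0.15, and CDC25A by 0.02 ± 0.08. CDK4 measured 194.7, 190.3 and 180.3 CPM in control and 170.4, 188.7 and 200.4 CPM in thrombin, which overlap, with a change of -0.02 ± 0.08 and a 95% interval from -0.17 to 0.14.

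E2F1 measured 296.7, 264.7 and 274.2 CPM in control 4 h and 275.8, 319 and 328.3 CPM in thrombin 4 h. The groups overlapped, at 0.14 ± 0.10 (adjusted p = 0.363), and E2F2 and E2F8 changed by 0.08 ± 0.10 and 0.01 ± 0.11. MCM2, a ring subunit, measured 487.3, 452.9 and 463.4 CPM in control and 519.4, 495.7 and 522.9 CPM in thrombin. Its thrombin libraries were all higher, with a change of 0.13 ± 0.07 that was not called (adjusted p = 0.258). Among the other licensing genes MCM6, CDC6, ORC6 and CDT1 had the smallest p, at -0.20 ± 0.08, -0.16 ± 0.07, -0.18 ± 0.08 and 0.16 ± 0.10 (adjusted p = 0.112, 0.179, 0.181 and 0.297). EXO1 measured 27.1, 29.9 and 31.0 CPM in control and 28.9, 24.0 and 24.4 CPM in thrombin. These groups overlapped, and the change was -0.19 ± 0.10 (adjusted p = 0.234). UHRF1 changed by -0.11 ± 0.07 and MCM10 by -0.14 ± 0.10 (adjusted p = 0.329 and 0.399), while RFC3 and POLA1 stood at -0.22 ± 0.11 and -0.16 ± 0.11 (adjusted p = 0.185 and 0.388). CDC45, GINS1 and GINS3 stood at -0.05 ± 0.08, 0.04 ± 0.09 and -0.04 ± 0.09, LIG1 and FEN1 at -0.10 ± 0.08 and 0.05 ± 0.08, and SLBP at 0.08 ± 0.07. The members not named, in licensing and at the fork, lay between -0.06 for MCM4 and 0.05 for MCM3.

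The 4 h count rested on single libraries, and the share of all genes called moved with it. No member fell without control 4 h replicate 13 or thrombin 4 h replicate 13 or 14. The same held without replicate 13 or 14 of every group, and 0.403% to 2.97% of all genes were lower across these fits. Without control 4 h replicate 14 PCNA alone fell (3.19%), and without control 4 h replicate 12 CCND1 alone, with GINS2 and PCNA both lost (6.01%). Without thrombin 4 h replicate 12, 5 fell and CCNE1 rose (7.15% lower and 8.23% higher). Without replicate 12 of every group, 8 fell and 3 rose (11.5% lower and 11.4% higher).

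**Figure D4:**
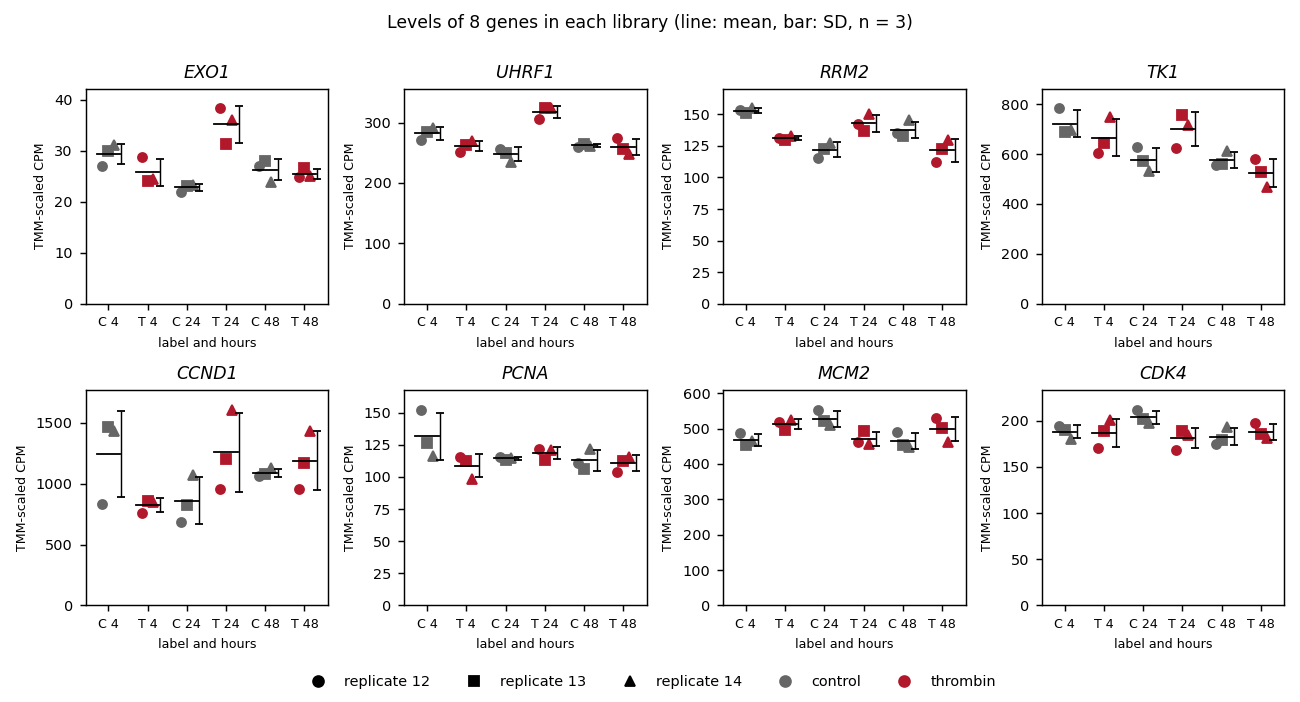
TMM-scaled CPM of EXO1, UHRF1, RRM2, TK1, CCND1, PCNA, MCM2 and CDK4 in every library of the 6 labelled groups, with a symbol for each library, a line at the group mean and a bar for the SD (n = 3). EXO1 in thrombin 24 h spans 31.3 to 38.3 CPM, above all other libraries, while CCND1 spreads from 835 to 1462 CPM within control 4 h.

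At 48 h no member was called, and neither was any other of the 15353 genes in edgeR (0%). At an unadjusted p below 0.05 there were 1110 genes in edgeR and 1062 in DESeq2, among them 6 members in edgeR. ORC6, the smallest subunit of the origin recognition complex, had the smallest p. It measured 41.1, 44.3 and 46.7 CPM in control 48 h and 37.5, 35.9 and 36.9 CPM in thrombin 48 h, which do not overlap, with a change of -0.26 ± 0.08 and a 95% interval from -0.43 to -0.09 (adjusted p = 0.512). MCM10 measured 46.9, 43.6 and 40.0 CPM in control and 35.3, 36.5 and 34.8 CPM in thrombin, with thrombin below control in all libraries and a change of -0.29 ± 0.10 (adjusted p = 0.514). RRM2 measured 134.9, 133.0 and 145.2 CPM in control and 112.0, 122.7 and 129.8 CPM in thrombin, at -0.18 ± 0.07 (adjusted p = 0.640). All 5 genes of helicase activation had negative values, down to that of MCM10, and the member median was -0.01 against 0.01 over all genes.

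The genes that rose at 24 h gave values near 0 or below at 48 h. EXO1 measured 26.9, 27.9 and 23.9 CPM in control 48 h and 24.8, 26.6 and 25.1 CPM in thrombin 48 h, which overlap, and its change of -0.04 ± 0.10 had a 95% interval from -0.25 to 0.16. UHRF1 stood at -0.01 ± 0.07 with an interval from -0.16 to 0.13. CCND1 measured 1059, 1075 and 1127 CPM in control and 957.5, 1173 and 1435 CPM in thrombin, with thrombin libraries on both sides of the controls and a change of 0.13 ± 0.23. CDK4 measured 175.4, 179.7 and 193.3 CPM in control and 197.9, 185.6 and 181.0 CPM in thrombin, and PCNA 110.6, 106.4 and 121.8 CPM in control and 103.8, 112.7 and 115.6 CPM in thrombin. Both overlapped, at 0.04 ± 0.08 and -0.03 ± 0.09. E2F1 measured 258.3, 247.5 and 271.1 CPM in control and 329, 303.9 and 269.3 CPM in thrombin, with a change of 0.22 ± 0.10 (adjusted p = 0.652). MCM2 measured 489.8, 454.4 and 447.1 CPM in control and 528.8, 502.8 and 461.4 CPM in thrombin, at 0.10 ± 0.07. In both genes 1 thrombin library lay within the control range.

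Every other member was uncalled at 48 h as well. Among G1 cyclins and E2F factors, CCNE2 changed by -0.25 ± 0.15, CCNE1 by -0.03 ± 0.14, E2F2 by 0.14 ± 0.10 and E2F8 by -0.08 ± 0.11. The licensing genes CDT1 and MCM5 changed by 0.12 ± 0.10 and 0.09 ± 0.08, and the GINS subunits GINS2, GINS3 and GINS1 by -0.24 ± 0.12, -0.19 ± 0.09 and -0.13 ± 0.09. At the fork, RFC3, POLD1, POLE and RFC5 stood at -0.14 ± 0.11, 0.11 ± 0.09, 0.10 ± 0.09 and -0.09 ± 0.08, with FEN1 at -0.08 ± 0.08 and LIG1 at 0.01 ± 0.08. Nucleotide supply gave -0.22 ± 0.10 for RRM1, -0.13 ± 0.10 for TK1 and 0.05 ± 0.08 for TYMS.

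The thrombin effect itself was compared between times. From 4 h to 24 h it became more positive for 11 members and more negative for 2, which is 26.8% and 4.88% of members, where 13.6% and 14.3% of all genes did so (28.0% in either direction). EXO1 had a difference of 0.81 ± 0.14 (adjusted p = 0.000113), UHRF1 of 0.47 ± 0.10 (adjusted p = 0.000837) and RRM2 of 0.45 ± 0.11 (adjusted p = 0.00217). CCND1, uncalled at either time, had the largest difference at 1.14 ± 0.32 (adjusted p = 0.0154), and CDC6, MCM10, GINS2, RFC3, TK1, RRM1 and LIG1 had differences of 0.32 to 0.46. CDK2 and MCM2 went the other way, at -0.33 ± 0.10 and -0.30 ± 0.10 (adjusted p = 0.0147 and 0.0339). Across 15 fits with libraries left out the count of 2 ran from 0 to 3, with 5.44% to 15.4% of all genes more negative. The count of 11 was 5 without thrombin 4 h replicate 13 or thrombin 24 h replicate 14, 6 without control 24 h replicate 13, 1 without replicate 13 of every group and 4 without replicate 14 of every group, while the share of all genes was 4.85% to 11.1%.

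From 24 h to 48 h the effect became more negative for 7 members (17.1%, against 6.68% of all genes) and more positive for none (7.16% of all genes). EXO1 and MCM10 led with -0.67 ± 0.14 and -0.61 ± 0.14 (adjusted p = 0.00224 and 0.00370). RRM2, UHRF1, GINS3, RRM1 and TK1 followed, at -0.41, -0.38, -0.42, -0.44 and -0.41. Both differences use the 24 h libraries, so they share samples. The count of 7 was 1 without replicate 13 of every group (1.75% of all genes).

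In serum-free medium alone, RRM2, EXO1 and TK1 fell between 4 h and 24 h and CDK2 rose. The 3 that fell are 7.32% of members against 7.15% of all genes, and the 1 that rose is 2.44% against 8.10%, so both shares were close to or below the background. RRM2 went from 153 ± 2.13 CPM (SD, n = 3) to 121.9 ± 5.99 CPM, a fall of -0.33 ± 0.07 (adjusted p = 0.00365). EXO1 fell by 0.36 and TK1 by 0.32 on the log2 scale (adjusted p = 0.0159 and 0.0236), and CDK2 rose by 0.22 ± 0.07 (adjusted p = 0.0380). The 3 control 24 h libraries of EXO1 were the lowest of all 18. CCND1 had the largest change of the members, at -0.53, and was not called. It was called lower without the low-count filter and with a replicate block. The same held without control 4 h replicate 12 or replicate 12 of every group. The rise of CDK2 was lost in 8 of 9 fits with libraries left out. Leaving out replicate 12, 13 or 14 of every group gave 6, 0 and 1 fallen, with 7.07%, 1.14% and 4.85% of all genes.

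Between 24 h and 48 h in medium alone MCM10 rose, from 32.5 ± 0.623 to 43.5 ± 3.44 CPM (0.42 ± 0.10, adjusted p = 0.0120). It was the only member called, 2.44% of 41 against 2.69% of all genes higher and 3.43% lower (6.12% together). The call was absent (count of 0) without control 24 h replicate 12 or control 48 h replicate 12. It was absent as well without replicate 12 or 13 of every group. In these fits 0.065% to 1.09% of all genes rose.

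With thrombin, EXO1, UHRF1 and CDC6 rose between 4 h and 24 h (0.45 ± 0.10, 0.28 ± 0.07 and 0.22 ± 0.07, adjusted p = 0.00241, 0.00669 and 0.0448), which is 7.32% of members against 7.85% of all genes, and none fell (7.28% of all genes). CDC6 measured 97.2, 88.7 and 87.8 CPM at 4 h and 110.2, 103.6 and 105.7 CPM at 24 h, without overlap. CCND1 had the largest change of the members, at 0.61, and was not called. It was called higher without the low-count filter, with a replicate block and with the compared groups alone. The same held without thrombin 24 h replicate 12 or replicate 12 of every group. The count of 3 was 8 without thrombin 4 h replicate 12 (9.19% of all genes) and 8 without replicate 12 of every group (9.80%). It was 0 without replicate 13 or 14 of every group (2.36% and 4.43%).

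Between 24 h and 48 h of thrombin 7 members fell (17.1%, against 5.41% of all genes) and none rose (4.31%), with 9.72% of all genes called in either direction. EXO1 fell from 35.2 ± 3.60 to 25.5 ± 0.943 CPM (-0.47 ± 0.10, adjusted p = 0.00270), TK1 from 699 ± 68.2 to 525.5 ± 56.3 CPM (-0.41 ± 0.10, adjusted p = 0.00613) and UHRF1 from 317.5 ± 10.6 to 259.4 ± 13.1 CPM (-0.29 ± 0.07, adjusted p = 0.00737). LIG1, GINS3, GINS2 and RRM2 fell by 0.29, 0.33, 0.37 and 0.24 on the log2 scale. The count was 4 without thrombin 24 h replicate 13 or 14, thrombin 48 h replicate 13 or 14, or replicate 12 of every group. Without replicate 13 of every group it was 1, and without replicate 14 of every group 0. In these fits 1.40% to 7.29% of all genes fell.

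Libraries labelled thrombin 4 h and control 24 h, which differ in both treatment and time, gave no member call in edgeR, where 0.0195% of all genes were higher and 0.0521% lower. At an unadjusted p below 0.05 there were 2 of 41 members and 857 of 15353 genes. EXO1, the member with the widest range elsewhere, measured 25.7 ± 2.70 CPM in thrombin 4 h and 22.8 ± 0.709 CPM in control 24 h, and UHRF1 261.1 ± 8.59 and 247.2 ± 11.6 CPM. The member median was 0.01.

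Other genes of the pathway were read beside the members. Of 39 further replication genes, 4 rose and 1 fell with thrombin at 24 h (10.3% and 2.56%, against 9.05% and 8.54% of all genes). The risen ones were CLSPN (0.54), the fork adaptor claspin, DONSON (0.33) and TICRR (0.34), which help to fire origins, and DSCC1 (0.38), part of a clamp loader, and the fallen one was the histone chaperone ASF1B (-0.28). At 4 h none of the 39 rose and CDC7 (-0.46), the kinase that fires origins, CLSPN (-0.36) and GMNN (-0.28), the licensing inhibitor geminin, fell (7.69%, against 5.52% of all genes). CTPS1, CTP synthase, was the 1 called among 12 further nucleotide genes (8.33%), at -0.23 at 4 h and 0.30 at 24 h. At 48 h neither list held a call.

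Regulators of G1 outside the 41 were called in both directions. Of 27 such genes, 4 rose and 6 fell at 24 h (14.8% and 22.2%, against 9.05% and 8.54% of all genes). CDK6, a kinase partner of D cyclins, rose by 0.78, MYBL2 by 0.57, CCNA2 by 0.28 and the inhibitor CDKN1B by 0.25, while CCND2 (-0.72) and the CDK inhibitors CDKN1A (-0.64), CDKN1C (-0.77), CDKN2D (-0.49) and CDKN2B (-0.35) fell, with TFDP2 (-0.27). At 4 h TFDP2 (0.30), CCND3 (0.28) and CDKN2D (0.35) rose and MYBL2 (-0.41) and CDKN2B (-0.37) fell (11.1% and 7.41%, against 6.29% and 5.52% of all genes). CDK4 was not called at either time, and the call of CCND1 turned on the setting at both.

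Genes of mitosis and G2/M were also read beside the members. Of 30, 16 rose and 0 fell at 24 h (53.3% and 0%, against 9.05% and 8.54% of all genes). Their median was 0.26. Of the members 6 of 41 rose, with a median of 0.09. ANLN (0.58), KIF23 (0.42), KIF20A (0.39), BUB1 (0.36) and AURKA (0.30), of spindle, checkpoint and cytokinesis, had the smallest p. Their summed level was 5610 to 5958 CPM in control 24 h and 6539 to 7694 CPM in thrombin 24 h, which do not overlap. The control level was itself low at 24 h: it was 6770 to 7555 CPM at 4 h. In control 13 of the 30 fell from 4 h to 24 h (43.3%, against 7.15% of all genes). From 24 h to 48 h in control 15 rose (50%, against 2.69% of all genes). With thrombin 1 of 30 rose from 4 h to 24 h (3.33%, against 7.85% of all genes). At 48 h none was called, 30 of 30 were negative and the median was -0.24, with sums of 6757 to 7633 CPM in control and 5935 to 6417 CPM in thrombin. At 4 h 1 of 30 fell, HMMR at -0.36 (3.33%, against 5.52% of all genes). Replication-dependent histone mRNA mostly lacks a poly(A) tail and is poorly caught by poly(A) selection. Of 15 such genes tested, 1 rose at 24 h (6.67%, against 9.05% of all genes). At 4 h 2 fell (13.3%, against 5.52% of all genes), and the sum of the list ran from 180.5 to 279.7 CPM. The part of cell cycle position in the members' values was not tested.

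**Figure D5:**
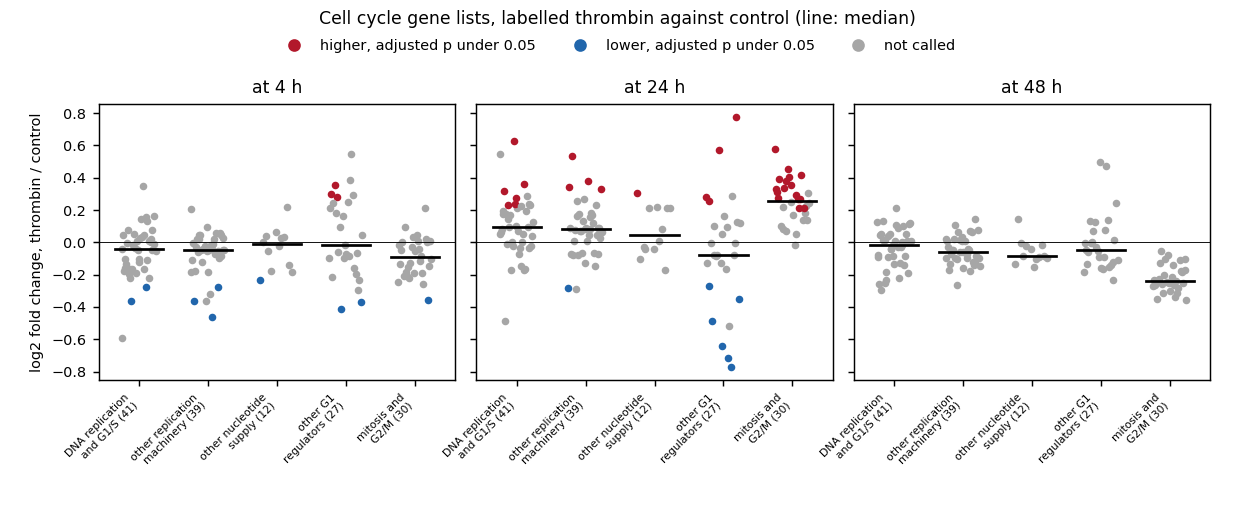
Log2 fold changes of thrombin against control at 4, 24 and 48 h for the 41 members and for 4 other cell cycle lists, one point a gene, coloured where called, with a line at the median. Among the 5 sets drawn, which leave out the histones, the G2/M genes have the highest median at 24 h (0.26) and the lowest at 48 h (-0.24), and the members have 0.09 and -0.01.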

How the data were processed

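Poly(A)-enriched RNA of 18 LX-2 libraries was measured, 3 in each of 6 groups taken from the labels. Values in the table deposited by the authors are raw counts, 1 row a symbol: all are whole, and library totals differ, so no scaling is visible. The build was GRCh38 (hg38) and the tools listed were SAMtools 1.21, Bowtie2 2.5.4, cutadapt 4.9 and DESeq2, per the submitters' processing notes. Which program counted reads, over which annotation, and whether by strand, is not given in the sources. In GENCODE v29, 14 of the 41 members share at least 100 exon bases with another gene (among them CDK4 with TSPAN31 and TYMS with ENOSF1), and 7 have named pseudogenes, so their levels are uncertain.

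Counts were analysed with edgeR 4.0.16 (R 4.3.3, limma 3.58.1) after filterByExpr (minimum count 10, minimum total 15), TMM scaling (factors 0.945 to 1.031) and robust quasi-likelihood fitting of a mean per group to all 18 libraries (biological coefficient of variation 9.07%, residual degrees of freedom 12). Tests were two-sided with Benjamini-Hochberg adjustment over 15353 genes, of 28278 symbols of which 4439 had no count; 0 columns were left over. The scripts were tested on simulated data. Alternatives were DESeq2 1.42.0, other scalings and filters, the compared groups alone, a replicate block, and leaving out libraries.

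The members and gene lists were chosen with earlier results of these data known. Every called member is named, with up to 4 members a role of smallest adjusted p in the thrombin comparisons, and CCND1, CDK4, E2F1, PCNA, MCM2, RRM2 and EXO1 in every library; from other lists, up to 5 called genes of smallest adjusted p.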

Additional observations from a re-analysis of the deposited data

Results flagged for a closer look

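The values below were singled out because the thrombin effect on a member, on the log2 scale, differed between 2 times by an interaction test in edgeR with Benjamini-Hochberg adjustment over all genes. From 4 h to 24 h the effect rose for CCND1 by 1.14, EXO1 by 0.81, UHRF1 by 0.47, GINS2 by 0.46, MCM10 by 0.45, RRM2 by 0.45, RFC3 by 0.41, TK1 by 0.40, RRM1 by 0.39, CDC6 by 0.35 and LIG1 by 0.32. It changed by -0.33 for CDK2 and by -0.30 for MCM2. From 24 h to 48 h it changed by -0.67 for EXO1, -0.61 for MCM10, -0.44 for RRM1, -0.42 for GINS3, -0.41 for RRM2, -0.41 for TK1 and -0.38 for UHRF1. The EXO1 differences were called in 22 of 22 other settings each. All these values rest on the labels of the 4 h and 24 h libraries.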

How the results depend on the processing

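Of 808 values of 43 single-gene results under other settings, 560 kept their call, 248 lost it and 0 changed direction. Counts of members called moved by more than 1.5 times as follows. With the compared groups alone, 1 fell at 4 h (CCND1, with GINS2 and PCNA lost), where 4.44% of all genes fell. In that setting 1 had a more negative effect at 24 h than at 4 h (13% of all genes). There 0 rose in control from 4 h to 24 h (8.4% of all genes). With upper-quartile factors, 3 rose and 1 fell at 24 h (7.82% and 9.87% of all genes). Without the low-count filter, 0 had a more negative effect at 24 h than at 4 h (9.2% of all genes). In control 0 rose from 4 h to 24 h (5.31% of all genes) and 2 from 24 h to 48 h (3.54%). With thrombin 1 fell from 4 h to 24 h (5.35%). DESeq2 gave 6 fallen in control from 4 h to 24 h (7.58% of all genes). Smaller moves were left within that bound. At 24 h, 9 rose with DESeq2, 5 with RLE factors and 4 with a filter of 1 CPM in 3 libraries. Over all genes, 4599, 4668 and 4575 had an unadjusted p below 0.05 in those fits, against 4663 in the main one. At 4 h, 3 fell with DESeq2, upper-quartile factors or that filter, with 3965, 4048 and 3990 such genes, against 4062. With thrombin from 24 h to 48 h, 5 fell without the low-count filter, with upper-quartile factors or with the compared groups alone. Those fits had 3875, 3414 and 3289 such genes, against 3412, and more genes were tested without the filter.

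Counts of members called also moved with libraries left out. Brackets give the share of all genes called in the same direction. At 4 h, 0 to 3 rose (0.221% to 11.4%) and 0 to 8 fell (0.403% to 11.5%). At 24 h, 1 to 7 rose (3.26% to 8.66%) and 0 to 1 fell (2.82% to 7.7%). For the effect at 24 h against 4 h, 1 to 13 were up (4.85% to 14.8%) and 0 to 3 down (5.44% to 15.4%). For 48 h against 24 h, 0 to 1 were up (1.64% to 7.34%) and 1 to 6 down (1.75% to 7.29%). In control, 0 to 1 rose (1.33% to 7.61%) and 0 to 6 fell (1.14% to 7.18%) from 4 h to 24 h. From 24 h to 48 h in control, 0 to 1 rose (0.065% to 3.67%). With thrombin, 0 to 8 rose (2.36% to 9.8%) and 0 to 1 fell (1.44% to 9.87%) from 4 h to 24 h. From 24 h to 48 h with thrombin, 0 to 1 rose (0.838% to 5.43%) and 0 to 5 fell (1.4% to 7.29%). Where an arm kept fewer libraries, its spread was taken from all groups. The cause of these moves was not tested.

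Deviations of same-numbered libraries correlated at r from -0.17 to 0.28, with 11 of 45 pairs over 0.1 (6 of 15 for number 12), against 10 of 90 pairs with different numbers. Since not every pair was over 0.1, the numbers were not taken to pair the libraries. With a replicate block, 0 members rose and 3 fell at 4 h, 5 rose and 0 fell at 24 h, and 0 were called at 48 h. Over all genes, those with an unadjusted p below 0.05 under the block numbered 4051, 4654 and 1167 at these times. Without the block they numbered 4062, 4663 and 1110. The block gave 11 up and 2 down for the effect at 24 h against 4 h (5925 genes at an unadjusted p below 0.05). For 48 h against 24 h the block gave 0 up and 6 down (4264 such genes). Over the control times it gave 1 risen and 4 fallen (4494 genes), then 1 and 0 (3623 genes). Over the thrombin times it gave 3 and 0 (4383 genes), then 0 and 6 (3420 genes). Between thrombin 4 h and control 24 h it gave 0 (901 genes). Shares of all genes at an adjusted p below 0.05 are not given for the block. CCND1 was called under the block, at -0.56 ± 0.12 at 4 h and 0.54 ± 0.12 at 24 h (edgeR, adjusted p = 0.00263 and 0.00192). No scaling moved the median change of all genes by over 0.1. Depth limited PRIM1 most, at 52 to 159 counts a library.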

Other observations

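Within groups, 3 members kept the same library number at one end in all 6 groups. CCND1 was lowest in replicate 12 in 6 of 6 groups, CDK2 was lowest in replicate 14 in 6 of 6, and RRM2 was highest in replicate 14 in 6 of 6. No other member kept 1 number lowest or highest in all 6 groups.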
